A study of Mus musculus with 3 samples.

Results

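Stretches of the genome that carried many Ptbp2 reads without a tall pile of them are described here. The unit was a strand window, which is 10 kb of 1 strand of an autosome, and a read was placed in a window by its midpoint. A window was kept if it held 50 or more reads and overlapped no run, where a run is a chain of overlapping reads of that strand with 10 or more of them stacked at its summit. Of 173827 strand windows with a read, 6234 held 50 or more reads, and 2657 of these overlapped no run, which was 42.6%. The remaining 3577 overlapped at least 1 run and serve as the comparison. The read number and the summit chose the windows, so both are given only as a description.

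The reads came from HITS-CLIP of Ptbp2 in testes of male CD1 mice aged 8 weeks, with 3 libraries from 3 biological replicate animals, no other genotype or treatment and no control library. Whole testis was used, so each library holds RNA of germ cells and somatic cells together, and fewer cells of a type and less RNA per cell cannot be told apart. Each of the 1727697 reads was drawn in 1 of 3 display colours, with 493620 red, 952096 green and 281981 blue reads, and the labels do not say which animal a colour stands for. The colours are therefore given as 3 unnamed classes, with no SD over animals and no test between them. Of the reads, 1700922 lay on the 19 autosomes. Positions are those of mm9, counted from 1. Genes and cell type markers were not assigned, because the gene tables used here are of another build.

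Ptbp2 is a relative of the polypyrimidine tract-binding protein Ptbp1, is made in neurons and in male germ cells, and binds pyrimidine-rich RNA, much of it in introns of unspliced transcripts, where it promotes or represses the use of nearby exons. HITS-CLIP crosslinks protein to RNA with ultraviolet light, recovers the protein and sequences the RNA fragments held by it. A site bound in many cells appears as reads stacked on each other, while binding at many weak sites and fragments of background RNA both appear as reads scattered along a transcript. Without an input library these 2 kinds of scattered read cannot be told apart here.

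The 2657 windows held 176450 reads, 10.4% of those on the autosomes, and the windows with a run held 370574, or 21.8%. The median was 61 reads per window without a run (quartiles 54 and 73, highest 197) against 85 per window with a run (quartiles 65 and 118, highest 1974). A run was absent more often at lower depth, as the rule makes likely. Among windows of 50 to 59 reads 66.5% had no run, among those of 60 to 79 reads 51.1%, among those of 80 to 99 reads 32.1% and among those of 100 to under 150 reads 13.7%. Above that, 11 of the windows had no run, which was 2.11%.

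Reads in the windows without a run were spread over most of the 10 kb, yet few of these windows were evenly covered. A window was split into 10 bins of 1 kb, of which a median of 9 held a read (quartiles 8 and 10), and all 10 bins did so in 905 windows (34.1%). The windows with a run had the same median and quartiles of filled bins, and all 10 were filled in 1186 of them (33.2%). They were deeper, however, and at similar depth fewer of them had all 10 bins filled. At 50 to 59 reads the share was 23.1% without a run and 9.56% with one, and at 100 to under 150 reads 61.4% and 45.8%. In the windows without a run the fullest bin held a median of 27.7% of the reads (quartiles 23.1 and 33.7), where equal filling would give 10%. The variance of the 10 bin counts over their mean is near 1 for reads placed independently and with equal chance in every bin. It had a median of 5.36, and 111 windows (4.18%) had a value of 2 or less. Bases under at least 1 read made up a median of 16.8% of the window, against 17.75% with a run. Among windows of similar depth the order was the other way. The medians were 14.9% without and 12.2% with a run at 50 to 59 reads, and 26.3% and 23.0% at 100 to under 150 reads. Of the reads in the windows without a run 24.4% overlapped no other read, against 14.6% in the windows with a run and 47.7% outside the 50-read windows. Having no run therefore did not mean flat coverage, and 92 windows (3.46%) had 50% or more of their reads in 1 bin.

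Windows with a run were less even at every depth, which is in part a consequence of the rule. In windows of 50 to 59 reads the fullest bin held a median of 29.1% without a run and 43.4% with a run. The same medians were 27.4% and 38.7% at 60 to 79 reads, 25.9% and 34.8% at 80 to 99 reads, and 24.9% and 33.0% at 100 to under 150 reads. The variance over the mean was 4.99 against 10.2 at 50 to 59 reads and 7.02 against 13.1 at 100 to under 150 reads. In each of these 4 bands the median with a run was above the upper quartile without a run for the variance over the mean and for the share in the fullest bin. In the windows with a run, 769 (21.5%) had 50% or more of their reads in 1 bin and 3 (0.0839%) had a variance over the mean of 2 or less.

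**Figure D1:**
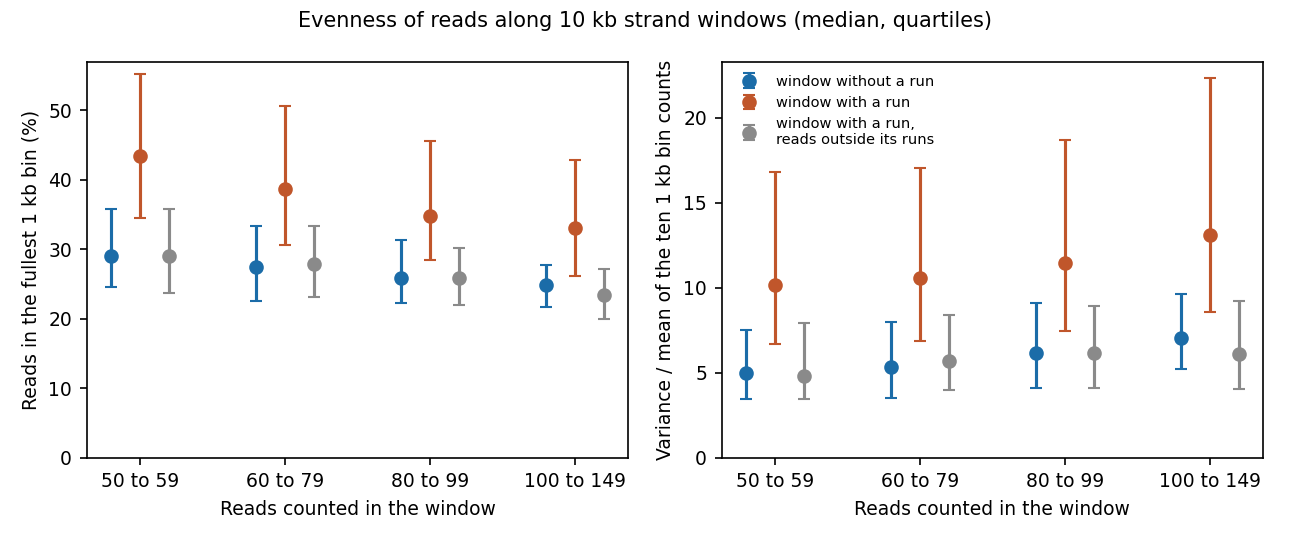
Left, the percentage of a window's reads in its fullest 1 kb bin, and right, the variance over the mean of the 1 kb bin counts, against the number of reads in the window, with points at medians and bars at quartiles over windows. At 50 to 59 reads the fullest bin held 29.1% without a run and 43.4% with a run, and 29.1% again when only reads outside the runs were counted in windows with a run.

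Outside the runs, the windows with a run had an evenness close to that of the windows without one. Runs held 35.9% of the reads of the windows with a run, and 2287 of the 3577 windows (63.9%) still had 50 or more reads when those were left out, a step chosen after the data were seen. Counted this way, the fullest bin held a median of 29.1% at 50 to 59 reads, 27.9% at 60 to 79 reads, 25.8% at 80 to 99 reads and 23.5% at 100 to under 150 reads. The windows without a run stood at 29.1%, 27.4%, 25.9% and 24.9% in these bands, so the medians of both kinds lay within 1.45 percentage points of each other. Over all depths the order turned, with 26.1% around the runs, at a median of 75 reads, against 27.7% in the windows without a run, at a median of 61 reads. Taking out the runs also takes out the reads that filled the fullest bin, so this value is a description and not an independent measure.

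Evenness was also read in colours that took no part in the choice. Windows with 30 or more reads of 1 colour were divided by whether a run of that colour reached 6 reads at its summit, and the bins were then filled with reads of the other 2 colours, in windows with 20 or more of these. With green as the choosing colour, the fullest bin of red and blue reads held a median of 30% in 1495 windows without a green run and 34.8% in 3342 windows with one. With red as the choosing colour the medians were 28.8% in 559 windows and 33.3% in 894 windows. With blue they were 27.5% without and 34.6% with a blue run, the latter in 188 windows. Windows without a run of the choosing colour were the more even in all 3 cases, and the quartiles of both kinds overlapped in each. Such windows could still overlap a run as defined over all colours, so they are not the same set as under the main rule. Besides reads of the choosing colour, they held a median of 157 others when chosen on blue and 80 when chosen on red. Under the main rule only 11 windows without a run held 150 or more reads, and 143 held 100 or more. Many chosen on blue or red therefore had a run under that rule, and the overlap was not counted.

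The direction was the same within bands of equal depth where both kinds had 100 or more windows. For windows chosen on green and measured on 20 to 29 red and blue reads the medians were 31.0% without and 37.9% with a green run. On 30 to 49 reads they were 30% and 34.8%, and on 50 to 79 reads 27.2% and 32.8%. For windows chosen on red and measured on 50 to 79 green and blue reads they were 29.6% and 35.9%. No p is given, because windows of 1 transcript share their reads' source and the colours are not tied to animals. No read is repeated in the file, so one found in 2 libraries would appear under 1 colour, and the colours are not fully separate either.

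**Figure D2:**
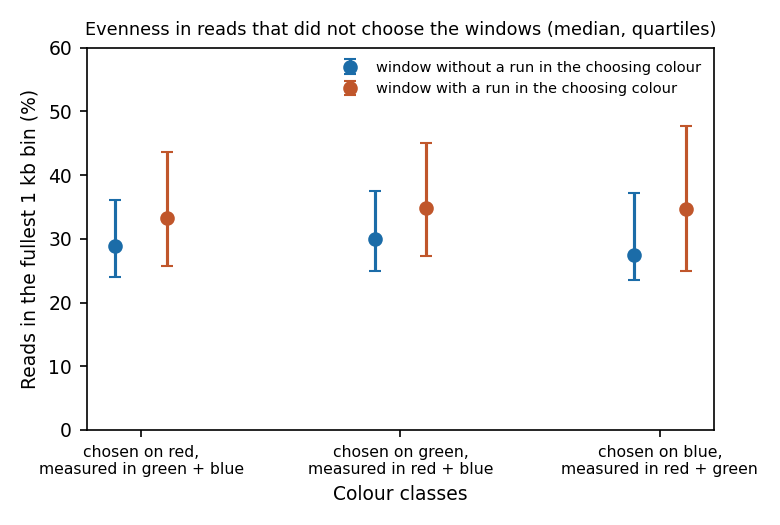
Percentage of reads in the fullest 1 kb bin, with windows chosen on 1 colour class and measured in the other 2 (points are medians over windows, bars are quartiles). Windows without a run in the choosing colour lay lower for each choosing colour, at 28.8% against 33.3% for red, 30% against 34.8% for green and 27.5% against 34.6% for blue, with overlapping quartiles.

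The most deeply read window without a run lay at chr5:115590001-115600000 (minus strand). It held 197 reads, of which 64 were red, 98 green and 35 blue, with a highest stack of 9. From its 5' to its 3' end the 1 kb bins held 1, 10, 46, 48, 13, 41, 36, 0, 1 and 1 reads. Nearly all of its reads thus lay in the part before the last 3 bins, and the next window on the 3' side held 1 read.

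The next 2 by read number had other outlines. The window at chr8:127420001-127430000 (plus strand) held 178 reads (37 red, 111 green, 30 blue), with bins of 0, 1, 2, 4, 9, 32, 9, 41, 49 and 31 reads, and the window after it held 1 read. Its reads lay towards the 3' end and stopped near the border of the window. The window at chr3:58530001-58540000 (plus strand) held 173 reads (55 red, 98 green, 20 blue), with all 10 bins filled by between 1 and 44 reads. It lay between 2 windows with a run, the one on its 5' side with 102 reads.

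The other 7 of the 10 most deeply read windows held 150 to 165 reads. On the plus strand they were chr7:89430001-89440000, chr7:134680001-134690000 and chr6:116260001-116270000, and on the minus strand chr17:40910001-40920000, chr13:48710001-48720000, chr8:25970001-25980000 and chr5:10810001-10820000. All 10 had stacks of 8 or 9 reads, just under the limit. The chromosome 7 window from 89430001, with 154 reads in bins of 6 to 23 reads, had the lowest variance over the mean of the 10, at 2.21, and the smallest share in the fullest bin, at 14.9%. The highest variance over the mean was that of the chromosome 5 window of 197 reads, at 21.4, and the largest share in the fullest bin that of the chromosome 8 window of 178 reads, at 27.5%. In the window with the lowest green share of the 10 green made 49.7% of the reads, and in the one with the highest 62.4%.

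The 5 windows with the smallest share in their fullest bin had nearly flat profiles. At chr13:52210001-52220000 (plus strand), 64 reads fell in bins of 8, 6, 3, 6, 8, 6, 7, 4, 8 and 8, so that the fullest held 12.5% and the variance over the mean was 0.493. This window followed directly on one with a run and 229 reads, and the next one held 3 reads. At chr8:25960001-25970000 (minus strand), 128 reads fell in bins of 6 to 17, with 53 red, 54 green and 21 blue reads. It adjoins the chromosome 8 window of 153 reads named above, so 281 reads lay over 20 kb there without a run.

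The other 3 of these 5 had similarly low variances. They held 65 reads at chr2:92430001-92440000 and 84 reads at chr1:11320001-11330000, both on the plus strand, and 84 reads at chr6:56140001-56150000 on the minus strand. Their variances over the mean were 0.590, 0.561 and 0.799. The highest chain overlapping the chromosome 2 window nevertheless had a stack of 9 reads. A chain that crosses the border of a window counts for it, and whether this stack lay inside the window was not examined.

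At the other end were windows with most of their reads in a single 1 kb bin. At chr11:116530001-116540000 (minus strand), 49 of 60 reads (81.7%) lay in the second bin from the 5' end and 5 of the bins held no read, with a highest stack of 9. At chr14:25230001-25240000 (minus strand) 39 of 51 reads lay in 1 bin, at chr10:13250001-13260000 (minus strand) 45 of 59, at chr18:4680001-4690000 (plus strand) 38 of 52 and at chr13:13600001-13610000 (plus strand) 42 of 58. These 5 had stacks of 7 to 9 reads and bases under a read in 9.23% to 12.7% of the window. They met the rule although the share in their fullest bin was above the median of 36.0% in windows with a run.

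**Figure D3:**
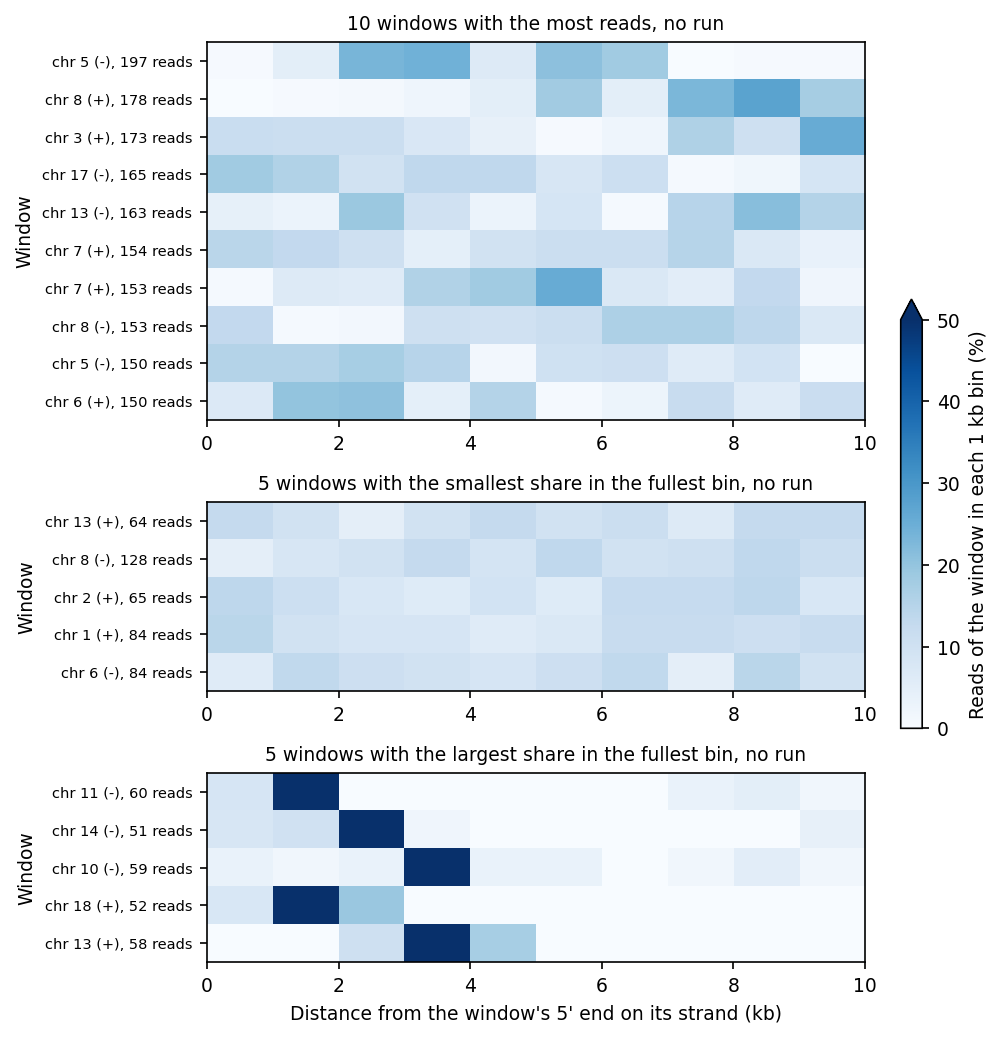
Percentage of each window's reads in its 1 kb bins, from the 5' to the 3' end of the window on its strand, for the 10 windows without a run with the most reads, the 5 with the smallest and the 5 with the largest share in the fullest bin (darker is more, and the scale ends at 50%). The fullest bin held 12.5% to 14.3% of the reads in the 5 with the smallest share and 72.4% to 81.7% in the 5 with the largest.

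Piles below the limit overlapped nearly all of the windows, counting chains that cross the border of a window. The highest stack in a window without a run was 9 reads in 516 windows, 8 in 543, 7 in 587, 6 in 509, 5 in 365, 4 in 123 and 3 in 14. A chain with 5 to 9 reads at its summit overlapped a window a median of 2 times (at most 13), and 137 windows overlapped none. The highest chain had a median width of 91 nt and 8 reads, and its commonest 5' end took a median of 33.3% of its reads. All 3 colours were present in it in 1418 windows (53.4%), 2 colours in 1058 and 1 colour in 181. In windows with a run the highest run had a median of 19 reads and held all 3 colours in 85.2% of windows, a share that also moves with its number of reads. The highest chain reached into the fullest bin in 56.7% of the windows without a run and in 81.2% of those with one.

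The windows at the limits differed little across them. The 157 windows of 50 reads without a run had a median of 30% in the fullest bin and the 163 windows of 49 reads had 30.6%. The 516 windows with a highest stack of 9 had 29.8% and the 446 with a highest stack of 10 had 30.2%. The variance over the mean was 7.12 at a stack of 9 and 7.51 at a stack of 10.

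The 3 colours contributed to the windows without a run in nearly the same proportions as to the windows with one. Green made 55.3% of the reads without a run (95% Wilson interval 55.0 to 55.5) and 55.4% with a run (55.2 to 55.5). Red made 28.5% (28.3 to 28.7) and 28.4% (28.3 to 28.6), and blue 16.2% (16.1 to 16.4) and 16.2% (16.1 to 16.3). The intervals overlapped for each colour. They cover counting error only and take reads as independent, which reads of 1 window or 1 transcript are not. In windows under 50 reads the shares were 28.6%, 55.1% and 16.3% for red, green and blue. Each of the 2657 windows held reads of all 3 colours, as did 3576 of the 3577 with a run.

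Single windows scattered around these shares. The green share had quartiles of 50% and 60.8% over the windows without a run, and of 50.6% and 60.3% over those with one. The whole 95% Wilson interval of at least 1 colour lay off that colour's share of all autosomal reads in 674 of the 2657 windows, or 25.4%, against 28.5% of all 6234 windows. Green was above in 157 windows (5.91%, against 7.94% of all 50-read windows) and below in 182 (6.85%, against 7.73%). Red was above in 169 (6.36%, against 6.95%) and below in 148 (5.57%, against 7.06%), and blue was above in 173 (6.51%, against 6.67%) and below in 111 (4.18%, against 5.12%). At 50 to 59 reads some colour was off in 24.2% of windows without a run and 35.1% of those with one, at 60 to 79 reads in 25.4% and 28.7%, at 80 to 99 reads in 27.7% and 28.1%, and at 100 to under 150 reads in 31.1% and 28.5%. The last value without a run rests on 41 of 132 windows, and these differences were not tested.

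The windows with the most unequal shares were chosen after their values were seen, and 3 of them are given here. The lowest green share was at chr5:7070001-7080000 (minus strand), where 31 red, 7 green and 19 blue reads were found. The lowest red share was at chr16:3580001-3590000 (plus strand), with 1 red, 64 green and 13 blue reads. The highest blue share was at chr9:8330001-8340000 (plus strand), with 12 red, 14 green and 24 blue reads. The highest stack in the first 2 was 5 reads and in the third 8 reads. Since colours are not tied to animals, these differences were not tested between animals.

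**Figure D4:**
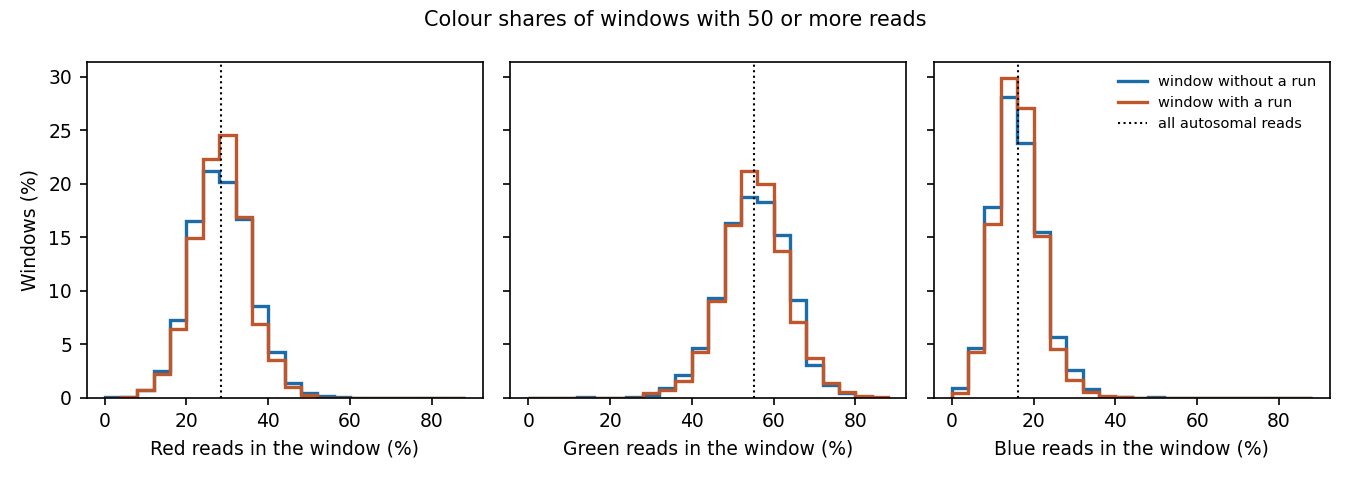
Distribution over windows of the red, green and blue percentage of reads, as the percentage of windows in steps of 4 points, for windows with 50 or more reads without and with a run (the dotted line is the share in all autosomal reads). With all depths pooled the distributions lie over each other, with green quartiles of 50% and 60.8% without a run and 50.6% and 60.3% with a run. At 50 to 59 reads the SD of the green percentage over windows was 8.76 points without a run and 10.1 with one. At 100 to under 150 reads it was 6.81 and 6.79 points.

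Read length hardly differed, with a median of 46 nt in the windows without a run and 47 nt in those with one. By colour the medians without a run were 47 nt for red, 45 nt for green and 47 nt for blue. A 5' end was shared with another read of the same colour by 26.3% of the reads without a run, 33.5% of those in windows with a run and 22.8% of those outside the 50-read windows. A 3' end was so shared by 10%, 19.7% and 7.44%. Shared ends add to the height of a stack, so they are not independent of the rule.

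Few reads lay on the other strand. Of all reads at these positions 2.53% lay on the opposite strand (95% Wilson interval 2.46 to 2.61), against 1.98% (1.93 to 2.02) for windows with a run, and 1939 of the 2657 (73.0%) had none, against 69.7% of the windows with a run. In 14 windows the opposite strand itself held 50 or more reads, as it did in 24 of the windows with a run. The highest number of opposite reads in a window was 245 without a run and 202 with one. The intervals cover counting error only and take reads as independent, which reads gathered in few windows are not. The difference between the shares was not tested. The plus strand held 52.7% of the windows without a run and 51.9% of those with one.

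The windows were found on every autosome, from 0.816 per Mb on chromosome 8 to 1.59 per Mb on chromosome 11. All reads numbered 619 per Mb on chromosome 8 and 910 per Mb on chromosome 11, and the windows without a run made 41.5% and 44.2% of the 50-read windows there. Their share among windows with 50 or more reads ran from 35.6% on chromosome 17 (120 of 337 windows) to 49.2% on chromosome 9 (160 of 325), around the 42.6% of all autosomes.

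Along a strand, windows without a run mostly stood alone or beside other kinds of window. On the 5' side 48.8% of the neighbours held under 50 reads but at least 10. A further 20.4% held 50 or more reads with a run, and 15.5% held 50 or more reads without one. Those with 1 to 9 reads made 10.5% and those with no read 4.86%. On the 3' side the shares were, in the same order, 50%, 19.6%, 15.5%, 12.4% and 2.52%. Runs in neighbours under 50 reads were not counted, here or in the values that follow. A window with a run stood on at least 1 side of 898 windows (33.8%), and 1225 (46.1%) had no neighbour with 50 or more reads. For windows with a run the same values were 43.6% beside another window with a run and 39.2% beside no 50-read window. Joined end to end, the windows without a run formed 1914 single windows, 268 pairs, 50 triplets, 8 stretches of 4 and 5 stretches of 5.

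The 5 longest stretches covered 50 kb each with no run in between. At chr5:10780001-10830000 (minus strand), 464 reads lay in windows of 87, 150, 104, 71 and 52 reads from 5' to 3', with 145 red, 237 green and 82 blue reads. A window with a run and 74 reads came before it, and 3 reads lay in the window after it. After the second window, which held the most, each held fewer reads than the one before it in the direction of the strand.

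The other 4 stretches showed no common slope. At chr3:65570001-65620000 (plus strand), 328 reads lay in windows of 88, 78, 50, 54 and 58 reads, after a window with a run and 117 reads. At chr6:56140001-56190000 (minus strand), 343 reads lay in windows of 64, 56, 85, 54 and 84 reads, between windows of 13 and 26 reads. It ends at the flat chromosome 6 window named above.

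The remaining stretches were chr5:107070001-107120000 (minus strand), with 335 reads in windows of 71, 95, 53, 58 and 58, and chr18:77330001-77380000 (plus strand), with 299 reads in windows of 59, 64, 68, 55 and 53. None of the 5 stretches held a read on the opposite strand, and the highest stack in them was 8 or 9 reads. Green made from 50.7% of the reads on chromosome 6 to 62.8% on chromosome 3.

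**Figure D5:**
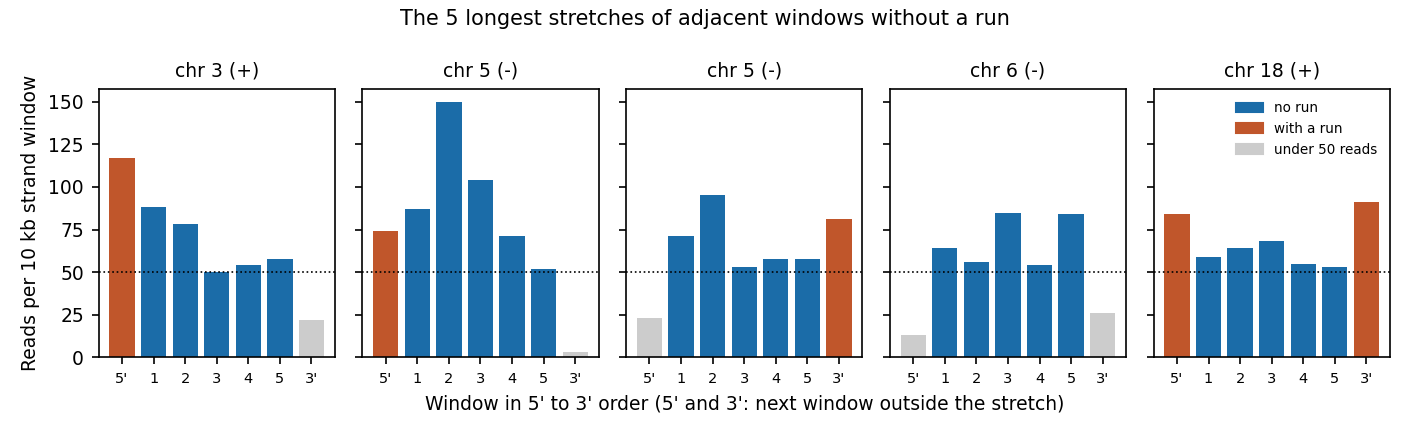
Reads per 10 kb strand window along the 5 longest stretches of adjacent windows without a run, in 5' to 3' order, with the next window on each side (the dotted line marks 50 reads). On chromosome 5 the second window from the 5' end held 150 reads and the last 52, while the chromosome 18 windows stayed between 53 and 68.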

How the data were processed

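The data were Ptbp2 HITS-CLIP reads of 3 testis libraries in 1 file that the authors deposited, with the position, strand, score and display colour of each mapped read. Bowtie and mm9 are named in the submitters' processing notes. Steps not given in the sources used here include the version, mapping settings and duplicate removal. The deposited score is 0 on every line and was not used. No line repeats the chromosome, ends and strand of another, also between colours. Lengths are 20 to 74 nt.

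Python 3.11.15 with numpy 2.4.6 and pandas 2.3.3 assigned reads by midpoint to 10 kb windows from 0 per strand and merged overlapping reads into runs. A window was set aside if a run of summit 10 or more overlapped it by at least 1 nt. Window assignment, summits and the presence of a run were checked on simulated plus-strand reads. Bin counts were not compared with a known answer. Depth is 1700922 autosomal reads, and shares have 95% Wilson intervals.

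The windows named are the 10 with most reads, the 5 with the smallest and the 5 with the largest share in the fullest bin, and the 5 longest stretches. The members and lists were chosen with earlier results of these data known. Alternatives were other read limits, summits, window sizes, grids, bins and left-out colours. Genes and sequences were not used here, because no mm9 annotation or genome was at hand.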

Additional observations from a re-analysis of the deposited data

Results flagged for a closer look

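The X chromosome, which the choice of windows left out, held 5 strand windows with 50 or more reads and no run. They are listed because they are signal outside the 19 autosomes, and no control library sets a background for them. Of the 15 X windows with 50 or more reads these 5 held 50 to 86 reads each, 299 in all, of which 59.5% were green. Their fullest 1 kb bin held a median of 29.4% of the reads.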

How the results depend on the processing

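The 2657 windows became 9151 with a limit of 30 reads, 143 with 100 reads, 137 with a summit of 5 as the limit for a run, 5214 with a summit of 20, 1000 with 5 kb windows and 4715 with 20 kb windows. Choosing without the red class gave 1541 windows, 865 of them among the 2657, and without the green class 649, of which 99 were among them. Requiring all 3 colours in a run, moving the grid by 5 kb, keeping 1 read per 5' end and colour and leaving out blue kept the number within 1.5 times, at 1981 to 3074. With 1 read per 5' end, 1641 of 2638 windows were among the 2657. The fullest bin held 8.27 percentage points less of the reads without a run than with one (medians of 27.7% and 36.0%). The difference, without minus with a run, was -13.9 points at a summit of 20 and -10.1 points with 5 kb windows. The 12 other planned settings stayed within the SD of 1.73 points over the 3 colours. That SD is over differences of -5.57 points for red, -8.23 for green and -5.00 for blue. Each was taken in windows with 20 or more reads of the colour, so the SD is a yardstick and no measure of noise. The difference reversed to 1.6 points when reads of the runs were left out of the windows with a run. This setting was chosen after seeing the data and by construction removes the fullest stacks. The green share, 55.3%, was 56.1% at a summit of 5, 55.7% with all 3 colours required in a run, 55.7% with 1 read per 5' end, 56.0% in windows chosen without red, 53.7% in windows chosen without green and 55.5% in windows chosen without blue. In windows with a run it was then 55.3%, 55.1%, 54.5%, 56.1%, 53.5% and 55.8%. The settings admit other reads or windows by construction, and otherwise the cause was not tested. Depth limits the blue class most, in which 118 of the 2657 windows held 20 or more reads. No paired analysis was possible because all libraries belong to 1 group.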
